A study of Mus musculus with 8 samples.

Results

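The AMPK-related kinases are protein kinases that resemble the catalytic subunits of the energy sensor AMPK and are switched on by the upstream kinase LKB1, which phosphorylates a threonine in their activation loop. In the developing cortex, LKB1 and NUAK1 act in axon branching, the BRSK kinases in the choice of a single axon, and the MARK kinases in the control of microtubule-binding proteins. The SIK kinases hold transcriptional coactivators of CREB and class IIa histone deacetylases in the cytoplasm. The 10 members examined here, chosen by symbol, were Nuak1, Nuak2, Brsk1, Brsk2, Mark1, Mark2, Mark3, Mark4, Sik2 and Sik3, out of 21165 gene rows in the count table. All 10 passed the filter on low counts, which left 12699 genes for testing.

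Poly-A RNA was sequenced from the microdissected cortex of 4 Nuak1 KO and 4 WT mouse embryos at E18.5, without any further treatment. The KO embryos carried a constitutive Nuak1 allele that the study genotyped by its LacZ cassette, and the line was kept on a C57Bl/6JRj background. Both sexes were used, with 2 males among the KO and 1 male among the WT embryos, from 3 litters by the sample labels and 4 by the description of the series. The columns of the table carry genotype and a running number only, so the labelled litter and sex were not given to a library, and neither was used in a fit. Libraries are named by genotype and running number.

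KO libraries held between 11027082 and 27014858 counts and WT libraries between 9643711 and 18940484. Markers of cortical projection neurons were measured throughout, with 8 of 8 passing the filter and a summed level of 19627 to 21712 normalized counts in KO and 14114 to 19871 in WT. Normalized counts are raw counts brought to 1 common library size with TMM factors. KO library R1 stood apart in meningeal fibroblast markers, with a sum of 9496 normalized counts over the 5 of 8 markers that passed the filter, against 321 to 490 in the other KO libraries and 258 to 363 in WT. All 5 had a positive log2 fold change, with a median of 2.93, while Lum, Foxc1 and Aldh1a2 did not pass the filter. KO library R1 was also highest in summed endothelial markers (5660, against 3499 to 4349 in the others) and microglial markers (1036, against 530 to 745). Red blood cell markers summed to 2533 in KO library R1, 4084 in KO library R2 and 302 to 719 elsewhere. Interneuron markers summed to 2667 to 2975 in KO and 2739 to 3657 in WT. No kinase of the family changed its call when KO library R1 was left out.

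The activation loop holds the site at which LKB1 acts and is present in every member. Shown here, to let the members be compared, is the coding DNA of the loop from its Asp-Phe-Gly motif to its Pro-Glu motif in Nuak1, in its closest relative, and in 1 kinase of each other subfamily. The sequences were read from GENCODE transcripts of NCBIM37, the assembly behind mm9, and matched the genome. Capitals mark the codon of the threonine that LKB1 phosphorylates.
Nuak1: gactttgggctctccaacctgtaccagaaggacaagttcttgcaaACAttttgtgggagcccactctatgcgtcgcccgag
Nuak2: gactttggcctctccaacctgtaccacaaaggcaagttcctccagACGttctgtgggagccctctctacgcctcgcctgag
Brsk2: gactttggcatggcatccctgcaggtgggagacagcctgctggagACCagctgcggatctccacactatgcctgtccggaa
Mark3: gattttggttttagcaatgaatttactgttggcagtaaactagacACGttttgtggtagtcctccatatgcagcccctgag
Sik3: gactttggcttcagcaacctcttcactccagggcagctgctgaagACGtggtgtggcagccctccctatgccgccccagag

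The Nuak1 stretch lies on the minus strand at chr10:83843525-83843605, within exon 5 of the 7 exons of its transcript, and holds the codon of threonine 212 of the 658 residues. That of Nuak2 lies on the plus strand at chr1:134226541-134226621, within exon 6 of 8, with threonine 220. The Brsk2 stretch is split between exons 5 and 6 of 20 on the plus strand, from chr7:149170815-149171363, with threonine 175. That of Mark3 lies on the plus strand within exon 8 of 18, at chr12:112865332-112865412, with threonine 211. The Sik3 stretch is split between exons 4 and 5 of 25 on the plus strand, from chr9:45963623-45986034, with threonine 221. Every member had a threonine codon at this place and a stretch of 81 bases.

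Over the 27 residues that these bases encode, Nuak2 had 25 in common with Nuak1 and each of the other members between 14 and 16. At the level of bases, 68 of 81 were the same in Nuak1 and Nuak2, and between 43 and 51 in Nuak1 and the rest. The longest unbroken run shared by any Nuak1 and Nuak2 transcript was 23 bases, and with the other members it was at most 16. Out of 5524 different windows of 100 bases in the Nuak1 transcripts, 0 occurred in a protein-coding transcript of another gene. None was shared for Nuak2, Brsk2, Sik3 or the 4 Mark genes either. For Brsk1, 17.4% of windows also occurred, on the opposite strand, in Tmem150b, and for Sik2 13.8% did in Ppp2r1b. The library kit keeps the strand, but the strand setting used in counting is not given in the sources used here, so the counts of both genes are uncertain in those overlaps.

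Nuak1, which phosphorylates a regulatory subunit of protein phosphatase 1 and promotes axon branching, was the target of the deletion and served to check the labels. Its raw counts were 16, 9, 18 and 17 in KO libraries R1 to R4 and 1340, 1649, 846 and 519 in WT libraries R1 to R4. After normalization these were 20.5, 13.7, 11.1 and 11.5 in KO and 1377, 1445, 1118 and 877 in WT. Every column thus followed its genotype label. Relative to the WT mean, the KO libraries kept between 0.925% and 1.70% of the Nuak1 signal, the highest share in R1. The 60 KO counts have an exact 95% Poisson interval of 45.8 to 77.2, which covers counting error only. The table counts reads over the whole gene, so it does not show which exons the remaining KO reads came from. Nuak1 fell by 6.49 on the log2 scale, with a standard error of 0.22, and had the smallest p of all genes (edgeR quasi-likelihood test, Benjamini-Hochberg adjusted p = 1.2e-07).

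Nuak2, the paralog of Nuak1 with the nearest loop sequence, was the scarcest member. It had 56.4, 51.7, 59.4 and 60.7 normalized counts in KO libraries R1 to R4 and 55.5, 59.6, 76.6 and 64.2 in WT libraries R1 to R4. The genotypes overlapped, and no KO library exceeded the WT range. The log2 fold change was -0.15 (95% interval -0.50 to 0.20), or a change between -29.5% and 15.2%. That interval, the widest of the 9 members other than Nuak1, rests on raw counts of 34 to 96 per library.

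**Figure D1:**
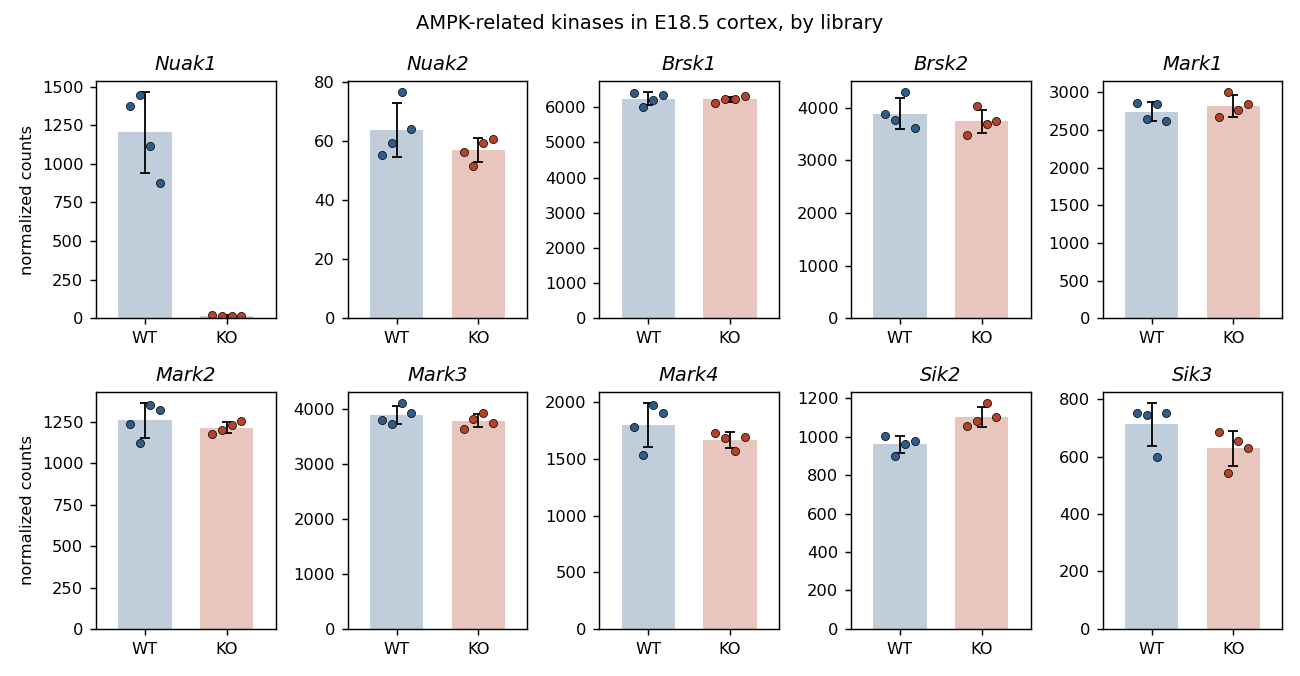
Normalized counts (y axis, from 0, own scale in each panel) of the 10 kinases in WT (blue) and KO (red) libraries; points are libraries R1 to R4 from left to right, bars the mean and error bars the SD (n = 4). Nuak1 is at 11.1 to 20.5 in KO against 877 to 1445 in WT, Sik2 is higher in every KO library, and the genotypes overlap in the other 8 kinases.

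Sik2 was the only other member whose libraries separated by genotype. SIK2 phosphorylates CREB coactivators and thereby restrains CREB-driven transcription in neurons. It had 1053, 1079, 1175 and 1101 normalized counts in KO libraries R1 to R4. In WT libraries R1 to R4 it had 1002, 900, 962 and 980. The lowest KO library was above the highest WT library. KO libraries averaged 1102 ± 52.4 and WT libraries 961 ± 43.8 (SD over 4 libraries). The log2 fold change was 0.20, with a standard error of 0.06 and a 95% interval of 0.07 to 0.33, or 14.9% more in KO. With an unadjusted p of 0.00604 it ranked 161 of 12699 genes, and it did not pass after adjustment over all genes (adjusted p = 0.475 from edgeR). The DESeq2 Wald test, the tool of the study, gave a log2 fold change of 0.21 and an adjusted p of 0.168. Without KO library R1 the log2 fold change was 0.23 (adjusted p = 0.624 from edgeR), and over all 12 alternatives the adjusted p lay between 0.168 and 0.916.

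Ppp2r1b, whose exons share 578 bases with Sik2 on the opposite strand, averaged 1079 ± 166 normalized counts over KO and 1080 ± 226 over WT libraries (SD, n = 4). Its log2 fold change was -0.0041 (standard error 0.15, adjusted p = 0.997 from edgeR). The partner of Sik2 thus had nearly equal means in the genotypes. Counts of whole genes do not show how much the shared bases added to Sik2, and that was not tested.

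Sik3, a relative of SIK2 known for its part in sleep need, had a negative log2 fold change. It had 687, 541, 654 and 630 normalized counts in KO libraries R1 to R4, and 751, 744, 600 and 752 in WT libraries R1 to R4. WT library R3 lay below 3 of the KO libraries, so the genotypes overlapped. The log2 fold change was -0.18 (95% interval -0.39 to 0.03, adjusted p = 0.712 from edgeR). Without WT library R3 it was -0.25, the most negative value over all alternatives.

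The BRSK kinases, also called SAD kinases, are needed for neuronal polarity. Brsk1 varied least of the members within either genotype, with a coefficient of variation of 1.26% in KO and 2.94% in WT. It had 6123, 6220, 6234 and 6314 normalized counts in KO libraries R1 to R4. In WT libraries R1 to R4 it had 6414, 6001, 6194 and 6348. The KO range lay inside the WT range. The log2 fold change was -0.0035 (95% interval -0.10 to 0.09), so that changes beyond -6.81% or 6.78% were outside the interval. Brsk2 had 3490, 4034, 3699 and 3741 in KO libraries R1 to R4 and 3872, 3759, 4293 and 3615 in WT libraries R1 to R4. KO library R1 was the only one below the WT range. Brsk2 had a log2 fold change of -0.05 (95% interval -0.20 to 0.09).

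Among the MARK kinases, which detach tau and related proteins from microtubules, no log2 fold change exceeded 0.11 in size. Mark1 had 2666, 2998, 2759 and 2848 normalized counts in KO libraries R1 to R4 and 2855, 2647, 2845 and 2615 in WT libraries R1 to R4. Its log2 fold change was 0.04 (95% interval -0.08 to 0.16). Mark1 and Sik2 were the members with a positive value. Mark2, the polarity kinase Par-1b, had 1175 to 1256 in KO and 1120 to 1354 in WT, with a log2 fold change of -0.05 (95% interval -0.19 to 0.10). Mark3, a kinase of the mitotic phosphatase CDC25C, had 3650 to 3932 in KO and 3743 to 4117 in WT, with a log2 fold change of -0.04 (95% interval -0.15 to 0.07). Mark4 had 1728, 1688, 1569 and 1692 in KO libraries R1 to R4 and 1781, 1533, 1975 and 1910 in WT libraries R1 to R4. WT library R2 was below every KO library of Mark4, whose log2 fold change was -0.11 (95% interval -0.28 to 0.06).

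**Figure D2:**
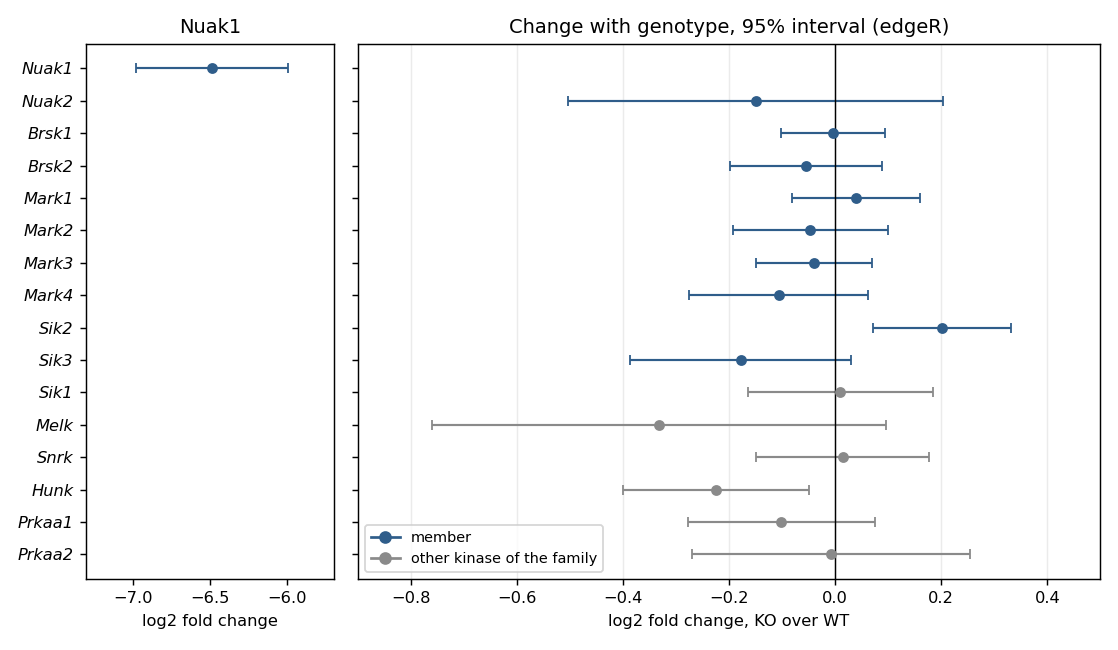
Log2 fold change of KO over WT (x axis) with its 95% interval from edgeR for each kinase, members in blue and other kinases of the family in grey. The left panel holds Nuak1 at -6.49 on its own range, and in the right panel the intervals of Sik2 (0.07 to 0.33) and Hunk (-0.40 to -0.05) do not include 0.

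At an adjusted p of 0.05, 1 of the 10 members was called, Nuak1, where 0.0709% of all genes tested were. At an unadjusted p of 0.05, 2 members passed, Nuak1 and Sik2, against 7.69% of all genes. The thresholds of the study, an unadjusted p under 0.05 and an absolute log2 fold change over 0.25, were passed by Nuak1 alone, against 4.25% of all genes. Genotypes did not overlap for 2 of the 10 members, against 4.49% of all genes tested. Since Nuak1 is the deleted gene, the counts to read against these shares are those of the 9 remaining members. They are 0 of 9 at the adjusted p and at the thresholds of the study, and 1 of 9, Sik2, at the unadjusted p and for genotypes that did not overlap.

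Of the 9 members other than Nuak1, 7 had a negative and 2 a positive log2 fold change, with a median of -0.05 against -0.01 over all genes tested. Their log2 fold changes ran from -0.18 for Sik3 to 0.20 for Sik2, and the 95% intervals reached from -0.50 at most, for Nuak2, to 0.33 at most, for Sik2. For every one of them, a difference in the number of cells of a type and a difference in RNA per cell cannot be told apart in these bulk samples.

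To compare the members with each other, counts were divided by the exon length of each gene, and the level is given as CPM per kilobase of exon, on TMM-scaled library sizes. In WT, Brsk1 was highest at 92.2 ± 2.71 and Mark3 followed at 69.2 ± 2.91 (SD, n = 4 each). Brsk2 had 42.0 ± 3.15, Mark1 36.5 ± 1.69 and Mark4 35.7 ± 3.88. These 5 kinases were between the 85.8 and the 95.5 percentile of the 12154 tested genes with a known length. The middle of the order was held by Sik2 at 16.3 ± 0.743, Nuak1 at 12.96 ± 2.80 and Mark2 at 9.59 ± 0.800. With the longest transcript as length, Mark2 was at 16.4, near Sik2 at 16.4 and above Nuak1 at 13.1. Sik3 had 6.07 ± 0.636, and Nuak2 was last at 0.988 ± 0.141, at the 14.8 percentile. The median over all tested genes was 7.45. Nuak1, at the 63.7 percentile, was thus a gene of middling abundance, and 6 members had a higher mean.

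Neighbours in this order were compared within each WT library, with exon length, and the ratios depend on that choice of length. Brsk1 exceeded Mark3 by 1.33-fold, Mark3 exceeded Brsk2 by 1.65-fold and Brsk2 exceeded Mark1 by 1.15-fold, each in 4 of 4 libraries and with ranges that did not overlap. Mark1 and Mark4 were not separated with exon length, since Mark1 was the higher in 2 of 4 libraries and their ratio was 1.03. With the longest transcript as length, Mark4 had the higher WT mean, at 48.2 against 36.5 for Mark1. Sik2 lay 2.18-fold under Mark4 in 4 of 4 libraries. Nuak1 could not be set apart from either neighbour: Sik2 was the higher in 3 of 4 libraries (log2 difference 0.36 ± 0.36, SD), and Nuak1 was higher than Mark2 in 3 of 4 (log2 difference 0.41 ± 0.43, SD). Mark2 exceeded Sik3 by 1.58-fold and Sik3 exceeded Nuak2 by 6.16-fold, each in 4 of 4 libraries. In KO, the order of the 9 members other than Nuak1 was the same by their means, and Nuak1 moved from place 7 to place 10.

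**Figure D3:**
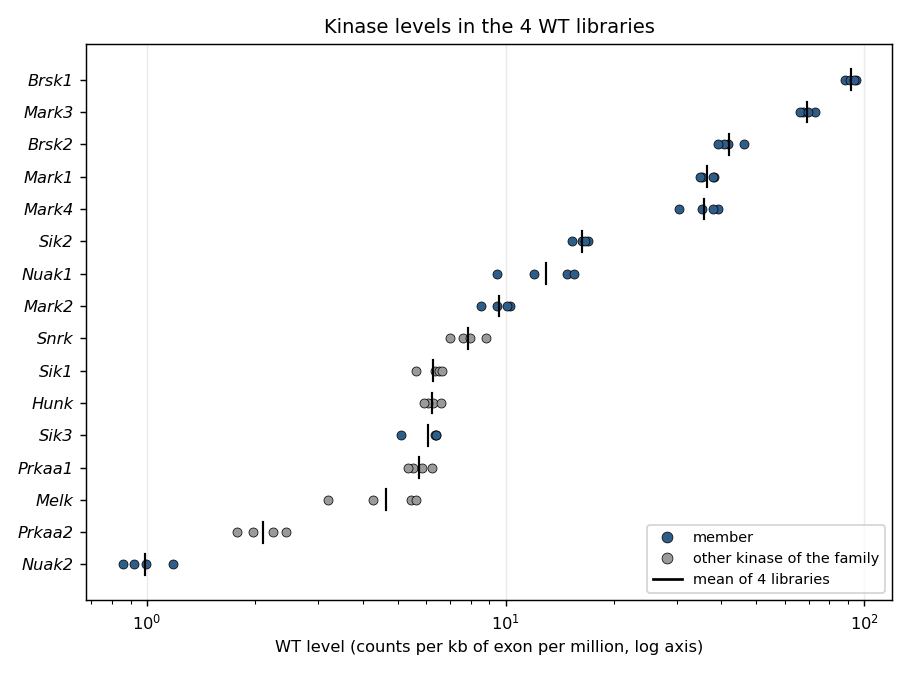
Level in the 4 WT libraries (points) with their mean (black line) for each kinase, on a log axis in CPM per kilobase of exon, members in blue and other kinases of the family in grey. Brsk1 and Mark3 lead at means of 92.2 and 69.2, Nuak1 (12.96) lies among Sik2 and Mark2 with the widest range of these, and Nuak2 is last at 0.988.

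The summed level of the 10 kinases averaged 305 ± 5.74 CPM per kilobase over KO and 321 ± 10.7 over WT libraries (SD, n = 4). Nuak1 made up 4.04 ± 0.936% of this sum in WT and 0.0504 ± 0.0165% in KO. Without Nuak1, the sum was 296, 310, 305 and 306 in KO libraries R1 to R4 and 311, 292, 321 and 309 in WT libraries R1 to R4. The KO range lay inside the WT range. The difference of the means was -1.30%, smaller than the SD between WT libraries. In WT, the BRSK kinases contributed 41.7 ± 0.254% of the summed level, the MARK kinases 47.0 ± 1.25% and Sik2 with Sik3 6.97 ± 0.362%.

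**Figure D4:**
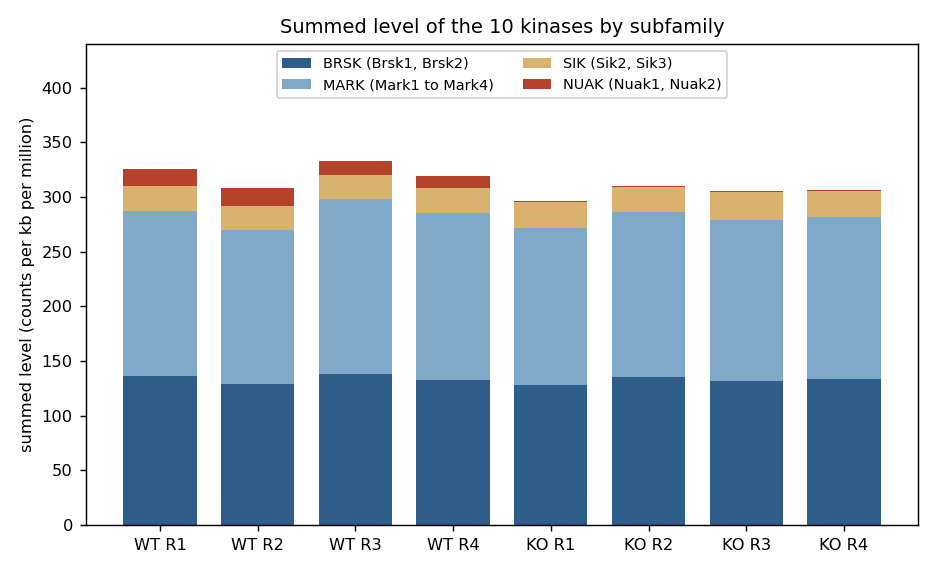
Summed level of the 10 kinases in each library (bars, from 0, in CPM per kilobase of exon), split by subfamily. BRSK and MARK kinases make up most of every bar, and the NUAK part is visible in the 4 WT libraries and nearly gone in the 4 KO libraries.

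Nuak1 also varied most between WT libraries among the members. Its coefficient of variation was 21.6% in WT, where counting error alone gives 3.34%, and its highest WT library held 1.65 times the level of its lowest. For the other members the coefficient lay between 2.94% for Brsk1 and 14.3% for Nuak2, for which counting error alone gives 13.9%. Melk, a kinase of the family outside the members, varied more than Nuak1 in WT. Its coefficient was 24.4%, where counting error alone gives 7.70%. The median over all genes tested was 10.2%. WT libraries R2 and R1 were high in Nuak1, R3 lower and R4 lowest. The summed projection neuron markers had the same order, with 19871 in R2, 18848 in R1, 17855 in R3 and 14114 in R4. Library totals also had this order, with 18940484 counts in R2, 16103585 in R1, 12495226 in R3 and 9643711 in R4. The parts of cell composition and of sequencing depth in the spread of Nuak1 were not tested.

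**Figure D5:**
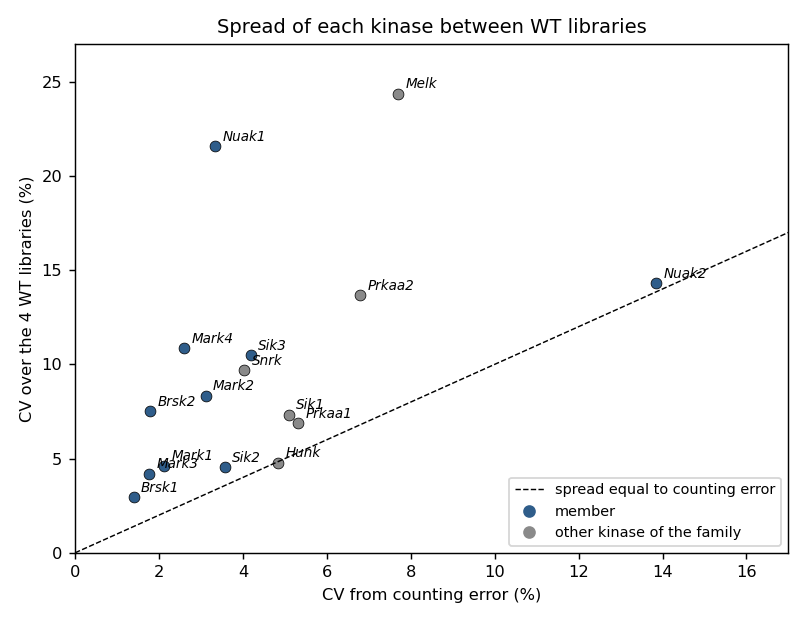
Coefficient of variation over the 4 WT libraries (y axis, percent) against the one that counting error alone gives (x axis, percent), with a dashed line where they are equal. Nuak1 lies at 21.6% against 3.34%, far above the other members, and Nuak2 lies near the line. Melk, a kinase of the family outside the members, lies higher still, at 24.4% against 7.70%.

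The other kinases of the AMPK subfamily with a row in the table were Sik1, Melk, Snrk, Hunk and the AMPK catalytic subunits Prkaa1 and Prkaa2, and all 6 were tested. With edgeR 0 passed an adjusted p of 0.05 and 1 an unadjusted one, against 7.69% of all genes, and with DESeq2 0 passed the adjusted threshold. Of the 6, 4 had a negative and 2 a positive log2 fold change. Hunk, a kinase of the same subfamily, was lower in every KO library. It had 460, 403, 492 and 428 normalized counts in KO libraries R1 to R4 and 526, 510, 498 and 556 in WT libraries R1 to R4. All KO libraries lay below all WT libraries in 1.85% of all genes tested. Hunk had a log2 fold change of -0.22 (95% interval -0.40 to -0.05, unadjusted p = 0.0168 and adjusted p = 0.564 from edgeR).

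Melk, a kinase of dividing progenitors, averaged 182 ± 41.3 normalized counts over KO and 228 ± 55.5 over WT libraries (SD, n = 4), with overlapping genotypes. In WT it ranged from 157 in R4 to 276 in R3. The sum of the progenitor markers was likewise lowest in R4, at 9287, and highest in R3, at 15499. Among single markers, Pax6, Nes, Top2a, Vim and Mki67 had these extremes. Eomes was instead highest in R2, and Sox2 and Hes5 were highest in R4. The part of progenitor content in the level of Melk was not tested. Prkaa1 averaged 412 ± 26.4 over KO and 441 ± 30.3 over WT libraries, and Prkaa2 276 ± 31.9 over KO and 278 ± 38.0 over WT libraries (SD, n = 4). Their log2 fold changes were -0.10 (95% interval -0.28 to 0.07) and -0.0073 (95% interval -0.27 to 0.26). Sik1 and Snrk had log2 fold changes of 0.0100 (95% interval -0.16 to 0.18) and 0.01 (95% interval -0.15 to 0.18).

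The upstream activators comprised LKB1 (Stk11), its pseudokinase and scaffold partners (Strada, Stradb, Cab39, Cab39l) and the kinases Camkk1, Camkk2 and Map3k7. All 8 were tested and 0 passed an unadjusted p of 0.05 with edgeR or an adjusted one with DESeq2. Their median log2 fold change was -0.01, with 3 positive and 5 negative values. The smallest p on each side belonged to Cab39, at 0.09 (adjusted p = 0.762 from edgeR), and to Camkk2, at -0.06 (adjusted p = 0.877 from edgeR).

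Targets of the kinases were examined at the level of transcripts only, and a kinase acts on their proteins. Among 5 subunits of protein phosphatase 1 tied to NUAK1, 1 passed an unadjusted p of 0.05, against 7.69% of all genes. Ppp1cb had an unadjusted p of 0.0373 with a log2 fold change of 0.12 (adjusted p = 0.631 from edgeR). It encodes the catalytic subunit that works with the myosin phosphatase regulator Ppp1r12a. Its normalized counts were 6808, 6307, 6509 and 6338 in KO libraries R1 to R4 and 6174, 6117, 5964 and 5679 in WT libraries R1 to R4, without overlap, and 2.64% of all genes tested were higher in KO without overlap. The other 4 subunits had log2 fold changes between -0.05 for Ppp1r10 and -0.0096 for Ppp1ca.

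Of the 7 microtubule proteins and cell cycle regulators phosphorylated by MARK or BRSK kinases, 0 passed an unadjusted p of 0.05 with edgeR or an adjusted one with DESeq2, and the median log2 fold change was -0.02. Tau (Mapt) had 18418 normalized counts in KO and 18048 in WT, and Map2, listed as Mtap2, 15054 in KO and 14765 in WT. The log2 fold change of Mtap2 was 0.03 and that of Cdc25c -0.25 (adjusted p = 0.805 from edgeR).

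Of the 7 CREB coactivators and class IIa histone deacetylases that SIK kinases phosphorylate, 0 passed an adjusted p of 0.05 and 1 an unadjusted one with edgeR, against 7.69% of all genes, and 0 passed the adjusted threshold with DESeq2. That gene was Crtc3, with a log2 fold change of -0.27 (unadjusted p = 0.0276 and adjusted p = 0.624 from edgeR). Hdac5 had a log2 fold change of 0.11 (adjusted p = 0.698 from edgeR). The median of the 7 was -0.08.

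The 14-3-3 proteins, which bind many of these targets once they are phosphorylated, had a median log2 fold change of -0.04 over 7 genes, of which 0 passed an adjusted p of 0.05 with edgeR or DESeq2 and 1 an unadjusted one with edgeR, against 7.69% of all genes. Sfn had the smallest p of these, with a log2 fold change of -0.66 (adjusted p = 0.631 from edgeR) at 10.6 to 14.8 normalized counts in KO and 14.5 to 28.9 in WT. DESeq2 gave no adjusted p for Sfn. Ywhaq had the smallest p among those with a positive value, at 0.07 (adjusted p = 0.820 from edgeR).

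The profile of Nuak1 over the 8 libraries was matched most closely by Tdg, Csad and 1190007I07Rik, with Pearson correlations of 0.984, 0.977 and 0.974 in log2 normalized counts. All 3 were lower in every KO library, and the points share the genotype contrast that sets Nuak1, so the values are a description. Tdg and 1190007I07Rik lie on the same chromosome as Nuak1. Tdg had 981 to 1140 normalized counts in KO and 1800 to 2056 in WT, a log2 fold change of -0.83 (adjusted p = 0.000383 from edgeR). 1190007I07Rik had 35.0 to 58.9 in KO and 106 to 137 in WT, a log2 fold change of -1.60 (adjusted p = 0.0154 from edgeR). Csad had 301 to 313 normalized counts in KO and 341 to 346 in WT, a log2 fold change of -0.16 (adjusted p = 0.646 from edgeR). Among the members, the correlation with Nuak1 ran from -0.888 for Sik2 to 0.573 for Sik3.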

How the data were processed

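Whole-transcriptome counts of mouse cortex were analysed. Adapters and low-quality bases were removed by the authors (Cutadapt 1.13, Prinseq), who aligned the reads to mm9 (TopHat2 2.0.13), used HTSeq-count for each gene and deposited raw counts that are not normalized. The deposited table has 0 summary rows and 0 unused library columns, and totals are given above.

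Libraries were grouped by the genotype in the column name. The test was the quasi-likelihood test of edgeR 4.0.16 under R 4.3.3, after filterByExpr and TMM, with Benjamini-Hochberg adjustment over all genes tested. The standard error is the log2 fold change divided by the square root of F, and 95% intervals use the t distribution without adjustment. The procedure was tested on simulated data, where 35 of 67 genes with a log2 change of 0.5 were called. No smaller change other than 0 was simulated. The largest log2 fold change estimated among the 9 members other than Nuak1 was 0.20 in size, and their 95% intervals reached from -0.50 to 0.33.

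Members and lists were chosen with earlier results of these data known. The text names all members, the other kinases of the family, the smallest p in each direction of each pathway list, and the 3 genes most correlated with Nuak1. Mapt, Ppp1ca and Ppp2r1b were named after their values were seen. Lengths and positions come from GENCODE vM1, in which 92.03% of rows matched 1 gene by symbol. Map2 and Map4 were matched through older symbols, and Nim1k was not analysed here. No libraries of a genotype agreed within sampling noise (smallest chi-square per degree of freedom 5.73). The labels name separate embryos. Alternatives were DESeq2 1.42.0, its size factors, other filters, other lengths, and each library left out.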

Additional observations from a re-analysis of the deposited data

Results flagged for a closer look

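Libraries that stood apart within their genotype were sought with Dixon's criterion, a gap to the nearest library above 0.829 of the range over 4 libraries. The examined groups were those of each kinase, of the pathway genes named, of the summed level without Nuak1 and of the marker lists. Of 68 such groups, 2 were above it, where chance gives about 3.4.

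Sik3 had 599.8 normalized counts in WT library R3 and between 744 and 752 in the other WT libraries. The meningeal fibroblast markers summed to 9496 normalized counts in KO library R1 and to between 321 and 490 in the other KO libraries.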

How the results depend on the processing

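No paired analysis was possible because library columns are not tied to litters or embryos, and the litter block and the sex covariate were not run. The level with shared exon bases left out was chosen after seeing the data. Of the members, 1 was called in every fit except the one that required at least 10 counts in every library, where 0 were called, and 0 passed the thresholds of the study, because that filter removes Nuak1. The 9 other members were called in 0 of 108 fits. Nuak1 held place 7 in WT except with the longest transcript as its length, where it held place 8 after Mark2. The cause was not tested beyond the change of length. In KO, Nuak1 rests on 9 to 18 counts per library. Among the 9 other members, Nuak2 had the fewest counts.

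Log2 fold changes near 0 reversed. Brsk1 was 0.0039 with DESeq2, 0.0032 with its size factors, 0.0064 with no filter and 0.0042 with at least 10 counts, and from -0.022 to 0.012 with a library left out. Prkaa2 was 8.8e-05 with DESeq2, 0.0023 with no filter and 0.00076 with at least 10 counts, and from -0.070 to 0.071 with a library left out. With a library left out, Brsk2 ran from -0.081 to 0.00086, Sik1 from -0.042 to 0.055, Snrk from -0.038 to 0.079 and Mtap2 from -0.010 to 0.070. The cause was not tested.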
